A study of Mus musculus with 3 samples.

Results

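Transcripts of 41 cell cycle and DNA replication genes were examined across 3 myeloid populations of the mouse colon. The genes were chosen by symbol, not by their values, out of 24346 symbols measured. They comprise 18 genes that act in DNA replication and S phase, 22 that act in G2 phase and mitosis, and Stmn1, a regulator of microtubules that is also used outside mitosis. One population was of dendritic cells without CD64 (CD64- DC), another of CD64+ macrophages, and the third of Gr-1+ CD11b+ cells, labelled as neutrophils and monocytes. All came from BALB/c mice that were healthy and untreated, from the colon. CD64 is a high-affinity IgG receptor, CD11b an integrin of myeloid cells, and Gr-1 an epitope of Ly6 surface proteins. No genotype, age or sex is given, nor whether cells of several mice were pooled. Each population has 1 library, so the differences cannot be set against a spread between replicates and none was tested. Values given as a run of 3 are in the order DC, macrophages, Gr-1+ CD11b+ cells.

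Dividing cells copy their DNA in S phase and separate it in mitosis. The E2F factors, held in check by the RB family, switch on the replication genes, and a later wave of transcription supplies the mitotic cyclins, kinases and spindle proteins. Neutrophils in tissue have left the cell cycle, and most macrophages and dendritic cells in tissue divide rarely, so a bulk level of these genes mixes the share of cycling cells with the RNA of each. Fewer cycling cells and less RNA per cycling cell cannot be told apart in such data. The DC library also held transcripts of B cell and plasma cell markers, given further below. Their part in these levels was not tested.

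Levels are FPKM, fragments corrected for transcript length and for the mapped total, which allows genes of different length to be compared. Differences were taken between log2(FPKM + 1) values, so that those of low genes come out too small. The size rule by which a gene is called higher or lower asks for a log2 gap of at least 2, with 10 FPKM reached in the higher library. The libraries differed in depth and in background. DC and macrophages had 3.58 and 2.70 times the estimated depth of the Gr-1+ CD11b+ library. Over 1452 olfactory and vomeronasal receptor genes, which myeloid cells should not use, the median was 0, 0.605 and 1.64 FPKM. Their 95th percentile was 0.611, 3.24 and 9.69 FPKM, and is called the silent-gene level here. All 41 genes lay above that level in DC, 22 in macrophages and 7 in the Gr-1+ CD11b+ library, so most values in the last library are not read as expression. Of the 41 genes, 40 reached 1 FPKM in at least 1 library; Cenpf, a kinetochore gene of mitosis, did not, with 0.636, 0.601 and 0.867 FPKM.

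DC held the highest transcript of most of these genes. The DC value was the highest of the 3 for 31 of 41 genes, the Gr-1+ CD11b+ value for 8 and the macrophage value for 2. Of those 8 genes, only Tyms and Ccnb1 were above the silent-gene level in the Gr-1+ CD11b+ library. The commonest order, DC over macrophages over Gr-1+ CD11b+ cells, was found for 21 genes, 13 of them replication genes. Its last step was slight for some, as for Mcm2 at 5.03 and 4.99 FPKM. For most of the 41 genes the Gr-1+ CD11b+ value was also under the silent-gene level. The pattern was clearer for replication than for mitosis. The median over the 18 replication genes was 21.1, 8.51 and 4.38 FPKM, and over the 22 mitosis genes 4.92, 2.46 and 2.69. Replication genes thus stood 4.30 times as high as mitosis genes in DC, 3.46 times in macrophages and 1.63 times in the Gr-1+ CD11b+ library, where both medians were under the silent-gene level. Levels were lower for longer transcripts, with a Spearman rho between longest transcript and FPKM of -0.41, -0.35 and -0.46 over the 41 genes of each library. This describes genes that share a library and is no test.

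**Figure D1:**
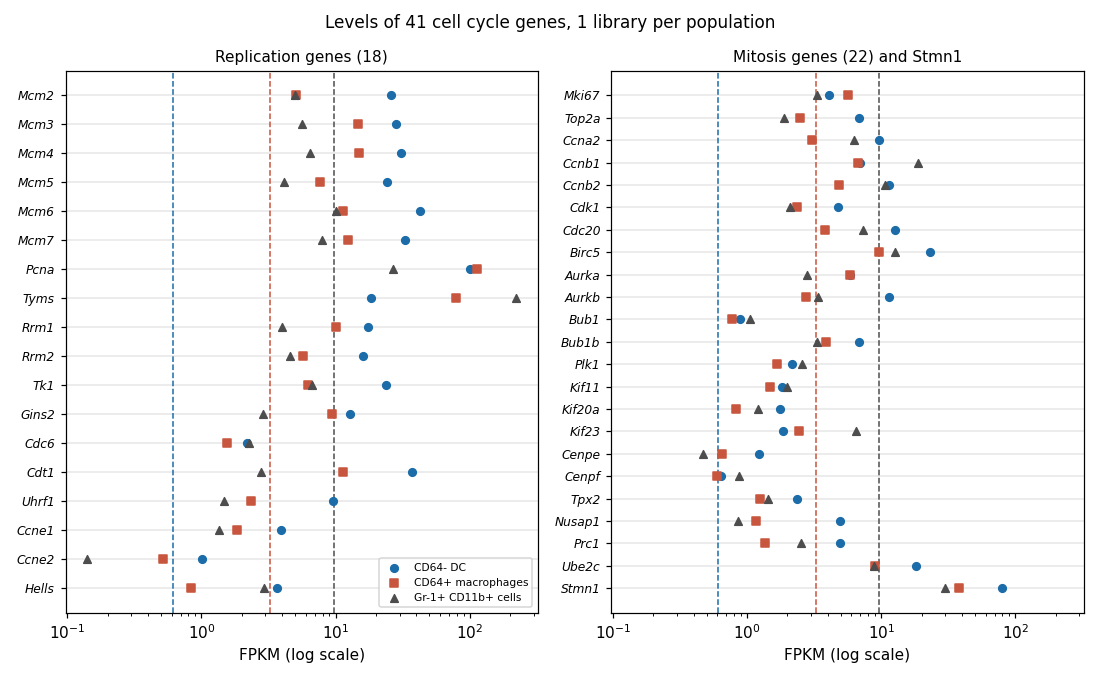
FPKM (log scale) of the 18 replication genes (left) and of the 22 mitosis genes and Stmn1 (right), 1 point per library, with the silent-gene level of each library as a dashed line of its colour (0.611, 3.24 and 9.69 FPKM). The DC points lie furthest right for 31 genes, and Tyms stands apart with its highest value, 223 FPKM, in the Gr-1+ CD11b+ library.

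The genes of the replicative helicase shared 1 order. Its subunits Mcm2, Mcm3, Mcm4, Mcm5, Mcm6 and Mcm7 unwind DNA ahead of the fork. In DC they ranged from 24.3 to 42.7 FPKM, in macrophages from 5.03 to 15.0 and in the Gr-1+ CD11b+ library from 4.15 to 10.1. All 6 were highest in DC and lowest in the Gr-1+ CD11b+ library, where only Mcm6, at 10.1 FPKM, exceeded the silent-gene level. Mcm2 was at 25.95, 5.03 and 4.99 FPKM, and so nearly equal in the latter. Its DC level was 5.16 times that of macrophages, a log2 difference of 2.16, and Mcm2 was the only 1 of the 41 genes called higher in DC than in macrophages, where 1.53% of all 17329 genes tested were. Mcm7 shares exon sequence with Cops6 on the opposite strand, listed at 134, 127 and 27.8 FPKM, and the reads of the pair may not be separable. Mcm6, at 42.7, 11.4 and 10.1 FPKM, fell just short with a difference of 1.82. From the estimated depth and its longest annotated transcript, the Mcm2 values rest on 765, 112 and 41.2 fragments, with 95% Poisson intervals of 24.1 to 27.9, 4.14 to 6.05 and 3.59 to 6.77 FPKM that cover counting error only. The DC interval lies apart from the other intervals, which overlap each other. Mcm2 lies on chromosome 6 at 88883474 to 88898780 on the minus strand (GRCm38, GENCODE M21).

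Genes that load the helicase and start replication differed in how far the libraries lay apart. Cdt1, which brings the helicase to origins, was at 37.4, 11.3 and 2.79 FPKM. The 3 values are well apart, and the last is under the silent-gene level and rests on 17.4 fragments. Cdc6, its partner in loading, was at 2.17, 1.55 and 2.28 FPKM and showed no such order. Gins2, a subunit of the GINS complex that activates the helicase, was at 12.8, 9.37 and 2.87 FPKM. The E-type cyclins, which drive entry into S phase, were low: Ccne1 was at 3.92, 1.84 and 1.36 FPKM and Ccne2 at 1.02, 0.518 and 0.140. The Gr-1+ CD11b+ value of Ccne2 equals about 0.985 of a fragment. Cdt1 is a plus-strand gene of chromosome 8, from 122568015 to 122573554.

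Pcna, the sliding clamp that holds DNA polymerase on its template and also serves DNA repair, was the most abundant member in DC. It was at 101, 114 and 26.8 FPKM, all above the silent-gene level. DC and macrophages were close, with a difference of -0.17 (DC minus macrophages), unlike the helicase genes. Against macrophages the Gr-1+ CD11b+ value was lower by the size rule, at -2.05, and this was the only such call among the 41 genes in that comparison, in which 3.41% of all genes tested were lower. It was lost with median-ratio and with 75th percentile scaling.

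The enzymes that supply DNA precursors did not move together. Rrm1 and Rrm2 encode the subunits of ribonucleotide reductase. Rrm1 was at 17.6, 10.2 and 3.96 FPKM and Rrm2 at 16.1, 5.70 and 4.61, and both followed the helicase. Tk1, the thymidine kinase of the salvage route, was at 23.9, 6.18 and 6.67 FPKM. Tyms, which makes thymidylate from deoxyuridylate, was the reverse, at 18.4, 79.3 and 223 FPKM. It was the most abundant member in the Gr-1+ CD11b+ library, 12.1 times its DC level and 2.81 times its macrophage level. Tyms was called higher in the Gr-1+ CD11b+ library than in DC (difference 3.53) under each of the 10 alternative settings tried, and lower in DC than in macrophages at -2.05, a call lost with equal library sums. Of all genes tested, 3.65% and 2.31% were called in these directions. Its difference of 1.48 between Gr-1+ CD11b+ cells and macrophages did not reach the rule. Tyms lies on chromosome 5 at 30058202 to 30073617 on the minus strand, a protein-coding gene with no exon overlap with another annotated gene. Its pseudogene Tyms-ps was listed at 0.0972, 1.03 and 5.57 FPKM, so reads shared between the copies leave the Tyms values uncertain by some amount that was not tested.

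Of the chromatin genes, Uhrf1, which recognises newly copied DNA for maintenance methylation, was at 9.58, 2.36 and 1.48 FPKM. Hells, a chromatin remodeller, was at 3.69, 0.831 and 2.95 FPKM. For both genes DC alone exceeded its silent-gene level.

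Mitosis genes were low in every library. They ranged from 0.636 to 23.3 FPKM in DC, 0.601 to 9.57 in macrophages and 0.467 to 18.7 in the Gr-1+ CD11b+ library. All 22 exceeded the silent-gene level in DC, 8 did in macrophages and 3 in the Gr-1+ CD11b+ library, where 6 were at or below the median silent gene. None of the 22 was called higher or lower in any of the comparisons, where 1.41% to 6.28% of all genes tested were called per direction. The rule asks for 10 FPKM in the higher library. That level was reached by 5 of the 22 in DC, 0 in macrophages and 3 in the Gr-1+ CD11b+ library. Most of the 22 could thus not be called, and the count of 0 says little about their differences.

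The mitotic kinase Cdk1 and its cyclins were not listed in a single order. Cdk1 was at 4.79, 2.37 and 2.09 FPKM. Its cyclin genes Ccna2 and Ccnb2 were at 9.58, 3.03 and 6.22 FPKM and at 11.4, 4.83 and 10.7 FPKM, listed lowest in macrophages. Cdk1 and Ccna2 were under the silent-gene level in macrophages and in the Gr-1+ CD11b+ library, so their order between those libraries is not read. Ccnb1 and Ccnb2 were above it in each library. Ccnb1, the main cyclin of mitotic entry, was at 6.92 and 6.72 FPKM in DC and macrophages and at 18.7 in the Gr-1+ CD11b+ library. Its difference of 1.32 from DC did not reach the size rule. Pseudogenes named for Ccnb1, Ccnb2 and Pcna are annotated and were not analysed here.

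Proteins of the chromosomal passenger complex and the spindle were mostly highest in DC. Birc5, which encodes survivin of that complex, was the most abundant mitosis gene in DC and macrophages, at 23.3, 9.57 and 12.7 FPKM. Aurkb, its kinase, was at 11.4, 2.76 and 3.39 FPKM, the widest gap between DC and macrophages among mitosis genes at 1.73. Aurka, the spindle pole kinase, did not differ between these libraries, at 5.82 FPKM in both, and was at 2.81 in the Gr-1+ CD11b+ library. Its activator Tpx2 was at 2.37, 1.25 and 1.43 FPKM. Nusap1, a spindle protein, was at 4.95, 1.17 and 0.861 FPKM, and Prc1, which bundles the central spindle, at 4.89, 1.35 and 2.53. Motor genes were under the silent-gene level outside DC. Kif11 was at 1.82, 1.49 and 1.97 FPKM, Kif20a at 1.77, 0.822 and 1.21, and Kif23, a motor of cytokinesis, at 1.85, 2.45 and 6.50. Kif23 was thus the only motor with its lowest value in DC.

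Checkpoint, kinetochore and ubiquitin genes were highest in DC, or were listed highest in the Gr-1+ CD11b+ library at values under its silent-gene level. Ube2c and Cdc20, the ubiquitin-conjugating enzyme and activator of the anaphase-promoting complex, were at 18.3, 8.94 and 8.80 FPKM and at 12.7, 3.80 and 7.28 FPKM. Both were highest in DC. The checkpoint genes Bub1 and Bub1b were at 0.882, 0.778 and 1.05 FPKM and at 6.79, 3.88 and 3.31 FPKM, and Plk1, a mitotic kinase, at 2.16, 1.68 and 2.58. Cenpe, a kinetochore motor gene, was at 1.23, 0.651 and 0.467 FPKM. Differences of such size among values near 1 FPKM are not read as an order of the populations.

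The usual proliferation markers gave no single order. Mki67, the gene of the Ki-67 antigen, was at 4.10, 5.70 and 3.32 FPKM, with Poisson intervals of 3.69 to 4.54, 5.14 to 6.30 and 2.64 to 4.12 that cover counting error only. Mki67 was thus highest in macrophages beyond counting error at the deposited scale, one of only 2 genes with that order. The intervals leave out scaling and background. FPKM summed to 667779 in DC and 874986 in macrophages, and the silent-gene levels were 0.611 and 3.24. Top2a, which untangles sister chromatids, was at 6.80, 2.47 and 1.89 FPKM, with intervals of 6.06 to 7.61, 1.97 to 3.06 and 1.21 to 2.82, and so highest in DC. Stmn1 was at 79.6, 38.2 and 29.8 FPKM, above the silent-gene level in each library, and passed the size rule in no comparison.

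The first comparison was of DC with macrophages. By the size rule 1 of 41 genes was higher in DC (Mcm2), beside 1.53% of the 17329 genes that reached 1 FPKM in at least 1 library, and 1 was lower (Tyms), beside 2.31%. At this limit and scaling these shares of the 41 are close to the background, and the rule does not set the cell cycle genes apart. The direction was shared more widely than the calls: 37 of 41 differences were positive, with Pcna, Tyms, Mki67 and Kif23 the exceptions. The median difference was 1.17 over replication genes and 0.64 over mitosis genes, beside -0.05 over all 17329 genes and 0.09 over the 5639 genes with a mean of 10 FPKM or more. With a pseudocount of 0.1 the replication and mitosis medians were 1.23 and 0.93, so the gap between them depends on the pseudocount. Scaling each library to the same sum gave 5 higher and 0 lower, beside 2.39% and 1.52% of all genes tested. This scaling raised the median of all genes by 0.25. A log2 limit of 1 gave 12 higher and 1 lower, beside 5.59% and 5.69%.

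In Gr-1+ CD11b+ cells against DC, replication genes had their largest median gap of the 3 comparisons. Here 5 of 41 genes were lower in the Gr-1+ CD11b+ library by the size rule (Mcm2, Mcm3, Mcm4, Mcm5 and Cdt1), beside 6.28% of all genes tested, and 1 was higher (Tyms), beside 3.65%. Just inside the rule were Mcm4 at -2.10 and Mcm3 at -2.14, and just outside it Mcm6 at -1.98 and Mcm7 at -1.93, so the members on either side hardly differ. The median difference was -1.89 over replication genes and -0.58 over mitosis genes. Over all genes tested it was 0.01, but over the 5639 genes with a mean of 10 FPKM or more it was -0.87, with 15.1% lower by the rule. Over 15 housekeeping genes it was -0.94, with 3 lower (Ppia, Rplp0 and Eef1a1). The share lower among the 41, 12.2%, lies between that of all genes and that of the abundant ones. With 75th percentile scaling, which moved the median of all genes by 0.61, the mitosis median was -0.0021 and the replication median -1.21. Cdt1, at -3.34, kept its call under each of the 3 scalings. With values under the silent-gene level set to that level, all 5 lower calls were lost, beside 3.06% lower among all genes tested. With 75th percentile scaling only Cdt1 remained, beside 2.10%.

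Gr-1+ CD11b+ cells and macrophages were compared last. Of the 41 genes, 0 were higher in the Gr-1+ CD11b+ library, beside 1.41% of all genes tested, and 1 was lower (Pcna), beside 3.41%. The median difference was -0.42 over replication genes and 0.22 over mitosis genes, beside 0.10 over all genes. Over the 5639 genes with a mean of 10 FPKM or more it was -0.81, with 9.43% lower by the rule. Over 15 housekeeping genes it was -0.75. Replication genes were thus not lower than abundant genes in general. The mitosis median moved to 0.57 with 75th percentile scaling and to 1.33 with values under the silent-gene level set to that level. The 3 comparisons share libraries, so their values are not independent of each other.

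**Figure D2:**
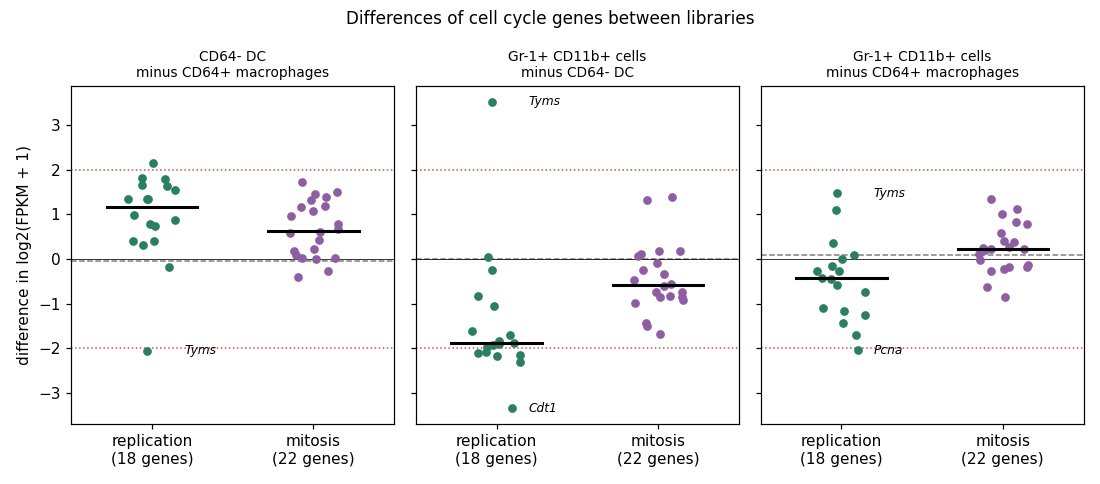
Difference in log2(FPKM + 1) of each replication gene (18, green) and mitosis gene (22, purple) in the 3 comparisons; black bars are medians, the dashed line is the median of all 17329 genes and the dotted lines are the limit of 2. The replication median is 1.17, -1.89 and -0.42 from left to right, and Tyms is the lowest point on the left (-2.05) and the highest in the middle (3.53).

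Replication genes are known for E2F sites and mitosis genes for CHR and NF-Y sites in their promoters, which were looked up in RefSeq sequence (GRCm38.p6) running from 250 bases before to 50 after the start site. A window was matched for 33 of the 41 genes, 36 windows in all; Mcm4, Gins2, Ccne2, Ccna2, Aurkb, Kif20a, Tpx2 and Stmn1 were not matched. The search covered 3 motifs on both strands: the E2F motif as TTTGGCGC, TTTCCCGC, TTTCGCGC or TTTGCCGC, the cell cycle genes homology region (CHR) as TTTGAA, and the NF-Y motif as CCAAT. An E2F match was in 47.1% of the 17 replication windows, 5.26% of the 19 mitosis windows and 2.26% of all 32851 windows. A CHR match was in 5.88%, 73.7% and 17.9%, and an NF-Y match in 64.7%, 89.5% and 37.4%. E2F matches were found for Cdc6, Cdt1, Hells, Mcm3, Mcm5, Mcm6, Mcm7 and Uhrf1, and among mitosis genes for Cdk1. A match is a description of the letters and does not show that a factor binds.

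The 4 stretches below, of 200 bases upstream of the start site, are given 5′ to 3′ on the strand of the gene, with matches in capitals. Tyms and Cdt1 are the members with the largest differences, while Mcm5 and Top2a were chosen after their values were seen, as a helicase gene with E2F matches and a mitosis gene with CHR matches. They illustrate windows with and without matches and are no comparison of the gene groups. The Tyms window holds none of the motifs, and the single E2F match of Cdt1 starts at base 33 after its start site, outside the stretch shown. In Mcm5 the E2F matches, one on each strand, overlap. The stretches lie on chr5:30073626-30073825 (minus), chr8:122567815-122568014 (plus), chr8:75109309-75109508 (plus) and chr11:99024190-99024389 (minus).
Tyms: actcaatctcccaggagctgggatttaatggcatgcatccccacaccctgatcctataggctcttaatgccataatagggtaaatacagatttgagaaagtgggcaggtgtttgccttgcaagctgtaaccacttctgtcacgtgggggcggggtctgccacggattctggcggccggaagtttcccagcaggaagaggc
Cdt1: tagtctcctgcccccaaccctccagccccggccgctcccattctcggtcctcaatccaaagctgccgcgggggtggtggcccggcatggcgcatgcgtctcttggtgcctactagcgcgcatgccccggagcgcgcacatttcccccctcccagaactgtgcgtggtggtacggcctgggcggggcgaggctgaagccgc
Mcm5: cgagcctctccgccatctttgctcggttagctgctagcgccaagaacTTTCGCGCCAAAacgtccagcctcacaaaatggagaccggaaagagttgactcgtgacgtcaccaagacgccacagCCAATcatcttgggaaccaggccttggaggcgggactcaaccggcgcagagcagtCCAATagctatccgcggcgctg
Top2a: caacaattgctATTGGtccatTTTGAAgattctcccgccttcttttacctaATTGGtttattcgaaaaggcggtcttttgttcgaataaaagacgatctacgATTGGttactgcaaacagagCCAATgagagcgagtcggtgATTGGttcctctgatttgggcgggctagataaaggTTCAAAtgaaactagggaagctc

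**Figure D3:**
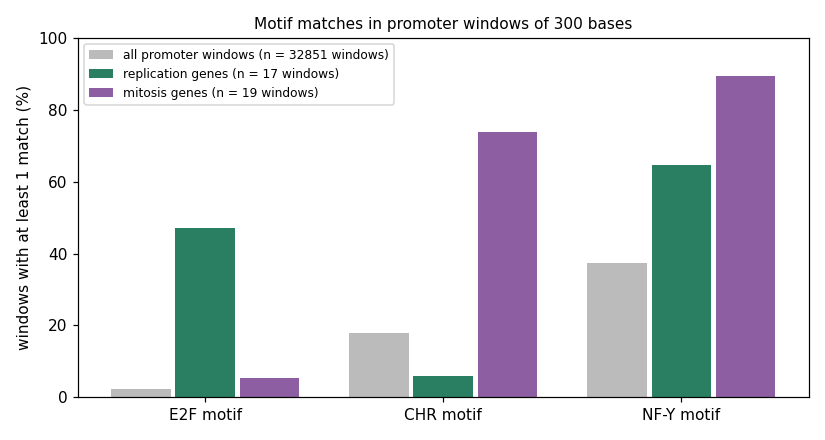
Share of promoter windows of 300 bases (%) with at least 1 match to each motif, for all 32851 windows (grey), 17 windows of replication genes (green) and 19 of mitosis genes (purple). E2F matches reach 47.1% among replication genes and CHR matches 73.7% among mitosis genes.

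Other genes of the same pathways were taken from lists that leave out the 41. Of 53 other replication genes, 11 were called lower in the Gr-1+ CD11b+ library against DC and 0 higher, with a median difference of -1.24. This is 20.8% lower, beside 6.28% of all genes tested and 15.1% of those with a mean of 10 FPKM or more. Pold1, the catalytic subunit of DNA polymerase delta, was at 39.0, 4.67 and 3.31 FPKM, and was the only one of the 53 called higher in DC than in macrophages. That is 1.89% of the list, beside 1.53% of all genes tested. Prim1, which lays down the primers, was at 15.6, 3.20 and 1.20 FPKM, and Rfc3, a subunit of the clamp loader, at 17.5, 6.26 and 1.58. Pole4, a small subunit of polymerase epsilon, was at 69.5, 38.1 and 8.26 FPKM and was lower in the Gr-1+ CD11b+ library than in both other libraries, as was Pole3. Against macrophages these 2 were the only ones lower, 3.77% of the list beside 3.41% of all genes tested. Of 74 other mitosis genes, 3 were lower in the Gr-1+ CD11b+ library than in DC and 0 higher, 4.05% against the same shares, with a median of -0.63. Those 3 were Cdca8, a passenger complex gene, at 10.1 FPKM in DC and 0.558 in the Gr-1+ CD11b+ library, the tubulin gene Tubb5 at 53.5 and 10.4, and Cdc16 of the anaphase-promoting complex at 32.2 and 5.47. Cdc25b, a phosphatase that activates cyclin-dependent kinases, was at 19.9, 3.98 and 19.6 FPKM, and was called lower in macrophages than in both. It was the only one of the 74 called against macrophages, 1.35% beside 1.53% and 1.41% of all genes tested in these directions. None of 20 replication stress and repair genes passed the rule in any comparison, beside 1.41% to 6.28% of all genes tested per direction. Only H2afx, at 36.7, 12.3 and 10.3 FPKM, reached the 10 FPKM that the rule asks for. The others could not be called whatever their difference.

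Regulators of entry into the cycle showed few calls. Of 21 G1 cyclin, kinase, E2F and MYC genes, 0 were called between DC and macrophages, 3 were lower in the Gr-1+ CD11b+ library than in DC (Cdk2, E2f4 and Myc) and 1 was lower than in macrophages (E2f1). These are 14.3% and 4.76% of the list, beside 6.28% and 3.41% of all genes tested and 15.1% and 9.43% of the abundant ones, and so near the background. Myc, a growth-promoting factor, was at 75.3, 23.3 and 10.5 FPKM. E2f1, an activator of replication genes, was at 5.80, 10.4 and 0.794 FPKM, highest in macrophages. E2f4, mainly a repressor with the RB family, was at 51.6, 33.2 and 11.5 FPKM, and Cdk2, the partner of cyclin E, at 15.7, 10.4 and 3.04. Of the D-type cyclins, Ccnd3 was at 105, 69.4 and 229 FPKM and thus highest in the Gr-1+ CD11b+ library without passing the rule.

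Genes that restrain division had no common direction, with median differences of 0.09, -0.19 and -0.14. Cdkn1a, the gene of the kinase inhibitor p21, was at 201, 1024 and 475 FPKM, and was lower in DC than in macrophages by the rule (-2.34). Cdkn2d, the gene of the inhibitor p19, was at 45.7, 40.1 and 152 FPKM, and the antiproliferative gene Btg2 at 368, 628 and 904, without passing. Tob2, of the same family as Btg2, went the other way at 54.2, 70.4 and 10.4 FPKM and was lower in the Gr-1+ CD11b+ library than in both others. Of 20 such genes, 1 was called between DC and macrophages and 1 in each comparison with Gr-1+ CD11b+ cells. Each is 5% of the list, beside 2.31%, 6.28% and 3.41% of all genes tested in the same direction, and so near the background. Cdkn2a is listed at 0 throughout, where a failed estimate is possible.

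**Figure D4:**
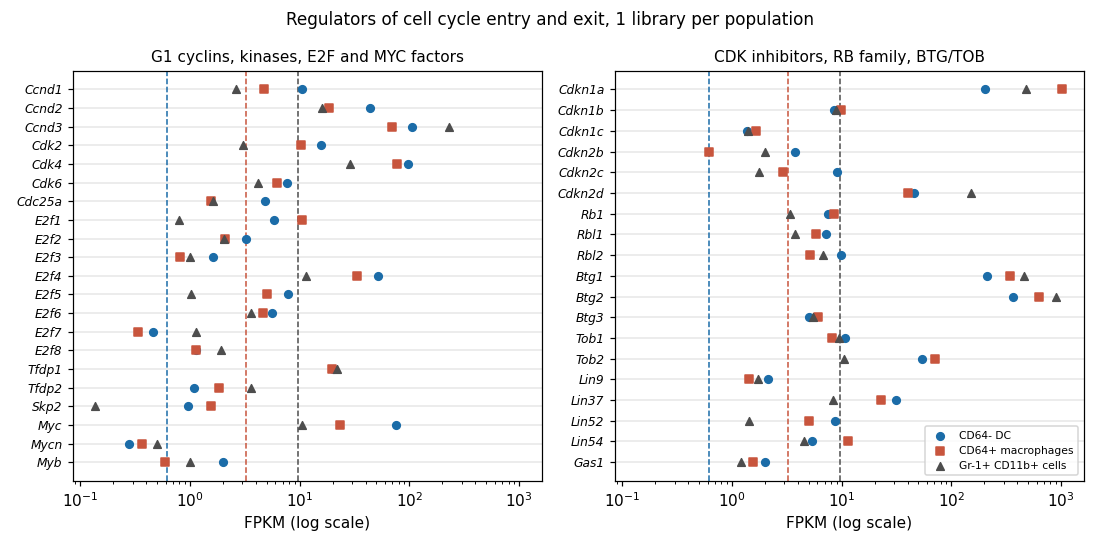
FPKM (log scale) of 21 genes that promote entry into the cycle (left) and of 19 that restrain it (right, leaving out Cdkn2a, listed at 0), 1 point per library, with each silent-gene level dashed. Cdkn1a is highest in macrophages at 1024 FPKM and Ccnd3 in the Gr-1+ CD11b+ library at 229.

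Markers of B cells, plasma cells, and T and NK cells had their highest sums in DC. Their part in the differences of the cell cycle genes was not tested. Of all genes tested, 1.53% were higher in DC than in macrophages. In the Gr-1+ CD11b+ library 6.28% of all genes tested were lower than in DC and 3.65% higher. Each of 10 B cell markers passed the rule in favour of DC against both other libraries, with sums of 3223, 153 and 73.6 FPKM, led by Cd79a at 1489, 59.3 and 35.8. Of 10 plasma cell markers, 9 exceeded their macrophage level by the rule in DC and 8 their level in the Gr-1+ CD11b+ library, with sums of 21458, 1365 and 644. Of 10 genes used by germinal centre B cells, which divide rapidly, Mef2b (39.0, 2.35 and 1.41 FPKM) and Rgs13 (16.4, 1.25 and 0.614) were higher in DC than in both. Fas of that list was higher in the Gr-1+ CD11b+ library than in DC, and the list summed to 174, 146 and 268 FPKM. Of 13 T and NK cell markers, 1 was higher in DC than in macrophages (Lck) and 3 than in the Gr-1+ CD11b+ library, and sums were 172, 105 and 73.2.

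Dividing neutrophil precursors were looked for in the Gr-1+ CD11b+ library. Of 11 early neutrophil markers, the granule protease gene Elane was listed at 0 in all libraries and Mpo was at 0, 0.250 and 0.169 FPKM, and the later granule gene Ngp at 3.84, 7.23 and 413. Prtn3, another early granule protease gene, was at 0.146, 37.4 and 4.69 FPKM and was called lower in both other libraries than in macrophages. In that list 4 were higher in the Gr-1+ CD11b+ library than in DC, 3 were higher and 1 lower than in macrophages, and 2 were lower in DC than in macrophages. Of all genes tested, 3.65%, 1.41%, 3.41% and 2.31% were called in these directions, in this order. The early neutrophil list summed to 35.8, 616 and 649 FPKM. Chil3, which is also in the monocyte list, was at 28.8, 566 and 198 FPKM. It made up most of the macrophage sum, and Ngp most of the Gr-1+ CD11b+ sum. All 10 mature neutrophil markers were higher in the Gr-1+ CD11b+ library than in DC and 9 than in macrophages, with sums of 2539, 6449 and 183972. Ly6g was not analysed here. Epithelial genes, from a lining whose crypts divide, were highest in the Gr-1+ CD11b+ library for 11 of 12, with sums of 723, 444 and 1553 FPKM. Of these, 1 was higher than in DC (Olfm4, a crypt gene, at 0.386, 2.14 and 19.3) and 3 than in macrophages, beside 3.65% and 1.41% of all genes tested.

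The remaining lists describe the sorts. Per comparison and direction, 1.41% to 6.28% of all genes tested were called, and single calls in these short lists are not read as traits of a sort. Of 12 macrophage markers 11 were lower in DC than in macrophages and 9 lower in the Gr-1+ CD11b+ library, with sums of 3489, 29244 and 2848 FPKM. Among 14 markers of dendritic cells, Flt3 and Ccr7 exceeded their macrophage level by the rule, Sirpa was lower and 7 were lower in the Gr-1+ CD11b+ library than in DC, with sums of 1844, 938 and 270. Of 10 monocyte markers 4 were lower in DC than in macrophages, 1 was higher in the Gr-1+ CD11b+ library than in DC, and 1 was higher and 3 lower than in macrophages, with sums of 2259, 4212 and 2124. Mast cell markers summed to 30.6, 14.3 and 18.7 FPKM with 1 call (Kit, higher in DC than in macrophages), stromal and endothelial ones to 369, 202 and 339 with 0 calls, and erythroid ones to 532, 326 and 538 with Hbb-bs alone lower in the Gr-1+ CD11b+ library.

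**Figure D5:**
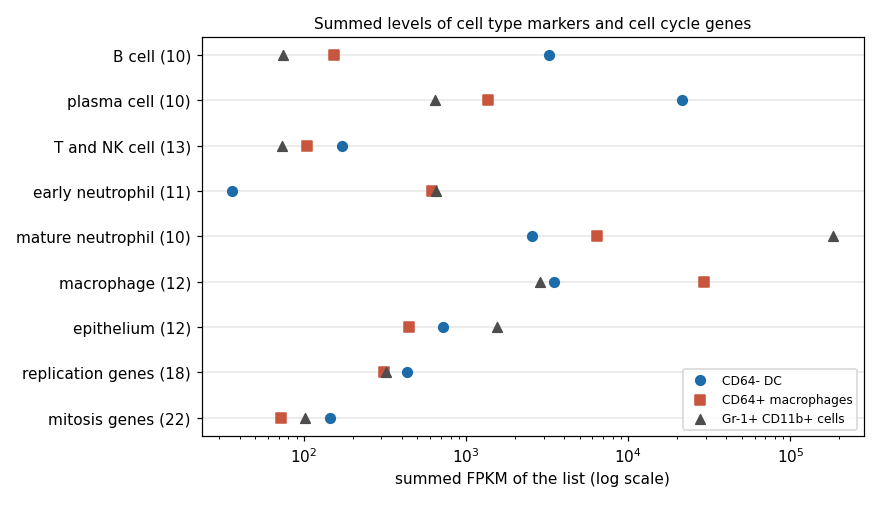
Summed FPKM (log scale) of marker lists and of the replication and mitosis genes, 1 point per library, with the number of genes in brackets. B cell markers sum to 3223 FPKM in DC against 153 and 73.6, while replication genes sum to 432, 309 and 318.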

How the data were processed

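RNA of 3 sorted populations was sequenced, 1 library each, from full-length SMART-Seq HT cDNA and Nextera libraries, per the labels' protocols. FPKM values were deposited by the authors, with 1 table for each library. Per the submitters' processing notes, the tools included Cufflinks 2.2.1, TopHat2 2.0.13, SAMtools 0.1.19 and Bowtie2 2.2.3, with the mm10 build, but no roles are stated. Annotation, filters and strandedness are not given in the sources used here. Of the 41 genes, 11 overlap an exon of a gene on the opposite strand, from which unstranded reads cannot be told apart.

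Values were used as deposited, with a pseudocount of 1 before log2. The size rule was applied to the 17329 genes that reached 1 FPKM in at least 1 library. Depth came from FPKM steps of genes with 1 transcript over 800 nt: with 200 nt taken off each length, 86.0%, 83.9% and 84.8% of low values lay within 0.2 of a whole fragment, where 40% would by chance. On 1 kb, 1 fragment was 0.112, 0.148 and 0.399 FPKM, and 3 were 0.335, 0.444 and 1.20. Coordinates and lengths are from GENCODE M21 (GRCm38).

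The members, lists and settings were chosen with earlier results of these data known. Named were all 41 members and, from the other lists, genes past the size rule with the largest differences and the most abundant markers; Elane, Mpo, Ccnd3, Cdkn2d, Cdkn2a and Btg2 were added after their values were seen. Python 3.11.15, NumPy 2.4.6, pandas 2.3.3, SciPy 1.17.1 and matplotlib 3.10.9 were used.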

Additional observations from a re-analysis of the deposited data

How the results depend on the processing

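No paired analysis was possible because each population has 1 library and no result comes from a test. For DC against macrophages, the 1 gene higher became 2 with a pseudocount of 0.1, 12 with a log2 limit of 1 and 5 with equal sums, and 0 with a pseudocount of 10, a floor of 30 FPKM, a limit of 3 or 75th percentile scaling. Among all genes tested, 1.80% were higher with a pseudocount of 0.1, 5.59% with a limit of 1 and 2.39% with equal sums. With the settings that gave 0, 0.58% to 1.19% were higher. The 1 gene lower became 0 with a pseudocount of 10, a limit of 3 or equal sums, beside 0.65% to 1.52%. For Gr-1+ CD11b+ cells against DC, the 5 genes lower became 6 with no floor beyond 1 FPKM, 9 with a pseudocount of 0.1, 14 with a limit of 1 and 12 with equal sums, 2 with a floor of 30 FPKM or median-ratio scaling, 1 with a limit of 3 or 75th percentile scaling, and 0 with a pseudocount of 10 or with values under the silent-gene level set to it. The 1 gene higher became 2 with a limit of 1 or 75th percentile scaling. For Gr-1+ CD11b+ cells against macrophages, the 0 genes higher became 3 with a limit of 1 and 1 with 75th percentile scaling. The shares of all genes tested were 4.72% and 3.64%. The 1 gene lower became 5 with a limit of 1, beside 15.1%. It became 0 with a pseudocount of 10, a limit of 3, median-ratio or 75th percentile scaling, beside 0.72% to 2.39%.

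The replication median between Gr-1+ CD11b+ cells and DC passed 2 in size with a pseudocount of 0.1 (-2.09) and with equal sums (-2.24). At a limit of 1 that median (-1.89) and the one between DC and macrophages (1.17) were past it. With values under the silent-gene level set to it, the mitosis median between Gr-1+ CD11b+ cells and DC turned to 0.87 and the replication median between Gr-1+ CD11b+ cells and macrophages to 0.44; raising the Gr-1+ CD11b+ values to 9.69 FPKM builds this in. No median changed sign under the 3 scalings, which shifted the median of all genes by -0.28 to 0.61. Depth limits 5 Gr-1+ CD11b+ values, which rest on under 10 fragments (Ccne1, Ccne2, Bub1, Cenpe and Nusap1), and 1 macrophage value. The silent-gene level limits the Gr-1+ CD11b+ library more than its depth does.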
